A study of Mus musculus with 6 samples.

Results

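The cardiac connexins examined here are the genes Gja1, Gja4, Gja5 and Gjc1, which encode connexin 43, connexin 37, connexin 40 and connexin 45. They were taken by gene symbol from the deposited expression table, and all 4 were found among its 23404 readable genes. Polyadenylated RNA came from preparations labelled as cardiomyocytes of C57BL/6J mice, sorted by flow cytometry on green autofluorescence (the FITC channel) and on forward scatter (FSC), a signal related to particle size. One gate took particles with strong FITC and weak FSC signal (FITChigh, 3 libraries), and it was set against a gate with weak FITC and strong FSC signal (FITCdim, 3 libraries). The mice carried no labelled treatment or transgene, and the series text names the libraries of a gate biological replicates without stating how many mice went into each, so p-values measure only the spread between these libraries. The series title gives the aim as purifying ventricular cardiomyocytes by autofluorescence, and the comparison asks how connexin transcripts differed between the gates.

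Connexins are membrane proteins whose rings in neighbouring cells dock to form gap junction channels, through which ions and small molecules pass. In the heart these channels carry the electrical impulse from cell to cell, mostly at the intercalated discs. Gja1 is the main connexin of working ventricular and atrial muscle. Gja5 is known from atrial myocytes, the His bundle, Purkinje fibres and the endothelium of arteries, Gja4 from vascular and chiefly arterial endothelium, and Gjc1 from nodal and conduction tissue, the embryonic heart and smooth muscle.

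The members are related genes, so the stretch that encodes the first extracellular loop is shown for Gja1, Gja5 and Gjc1 to let them be compared. The capitals mark the codons of its 3 conserved cysteines, which hold the loop in the shape that docks with the neighbouring cell. Each stretch has 66 coding bases, lies within 1 exon, and is written 5′ to 3′ on the gene's own strand from the GENCODE transcripts of build mm10. The Gja1 stretch is chr10:56387691-56387756 on the plus strand, that of Gja5 is chr3:97050773-97050838 on the plus strand and that of Gjc1 is chr11:102800969-102801034 on the minus strand.
Gja1: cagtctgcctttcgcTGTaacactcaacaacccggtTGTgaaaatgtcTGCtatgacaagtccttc
Gja5: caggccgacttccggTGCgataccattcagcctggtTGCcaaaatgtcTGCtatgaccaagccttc
Gjc1: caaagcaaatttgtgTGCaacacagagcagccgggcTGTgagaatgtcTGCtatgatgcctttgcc

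Within these stretches Gja1 shared 47 of 66 bases with Gja5 (71.2%), and Gjc1 was more distant from both, sharing 40 bases with Gja1 (60.6%) and 38 with Gja5 (57.6%). The longest run of identical bases between any annotated transcripts of 2 members was 38 bases, between Gja1 and Gja5. The other pairs had runs of 12 to 26 bases. Reads were 75 bases long, so no full read could match 2 members without a mismatch.

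The number of whole reads deduced from the deposited values was 1589825 to 2931045 per FITChigh library, against 1705626 to 3345994 per FITCdim library. All levels below are adjusted read counts, as deposited, and by library size 1 read was worth 0.607 to 1.54 of them. For a single gene the worth could differ, as the 1 Gja5 read of FITChigh replicate 3 stood at 0.568. Cardiomyocyte markers dominated both gates, with a summed level over 10 genes of 383304 to 420002 in FITChigh and 245020 to 294071 in FITCdim. All 12 endothelial markers tested were lower in FITChigh. Their sum was 614 to 802 in FITChigh and 4578 to 5061 in FITCdim. Neither gate was free of transcripts of other cell types. In bulk RNA, fewer cells of a type and less RNA per cell cannot be told apart.

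Gja5, Gja4 and Gjc1, 3 of the 4 members, were lower in FITChigh, and Gja1 did not pass the test. Gja5 was 6.44-fold lower, Gja4 4.62-fold and Gjc1 1.73-fold on the scale of the test, log2 of the adjusted read count plus 1, which understates the change of low genes. The 3 values of 1 gate lay outside those of the other for these 3 members. Over the whole table, limma called 13.5% of 12907 tested genes lower and 2.51% higher at an adjusted p under 0.05, and the gates did not overlap for 31.6% of them. The call split of 324 higher and 1748 lower genes became 41 and 2189 with each library rescaled to 1 common total, and 467 and 1213 after quantile normalization.

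**Figure D1:**
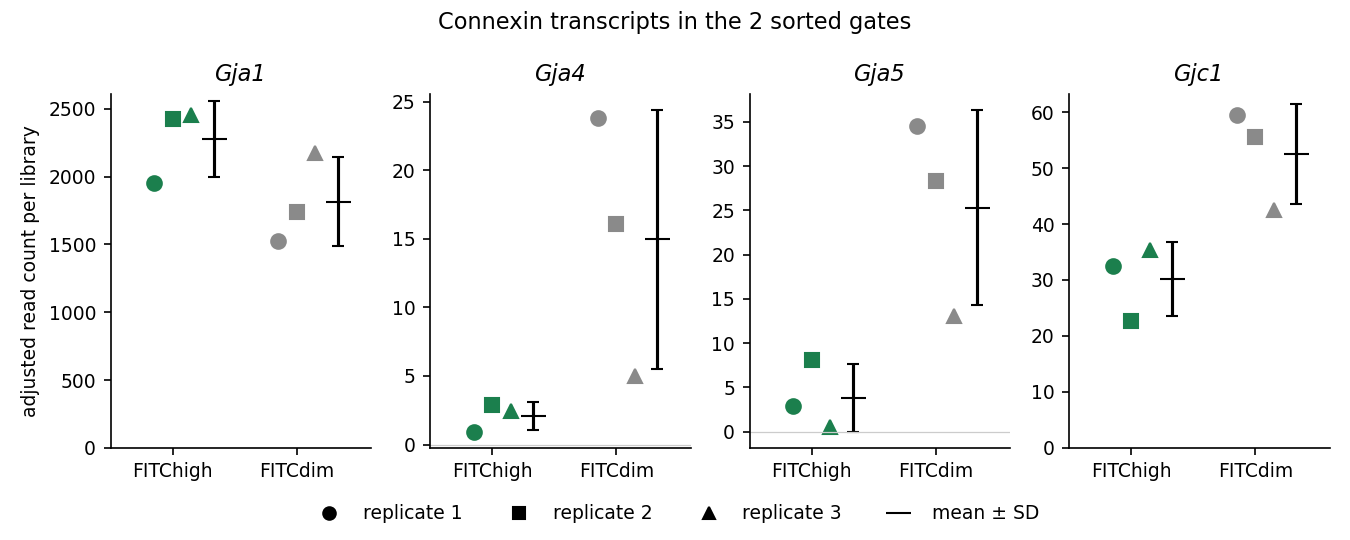
Adjusted read count of each connexin gene in every library (y axis, a separate scale for each gene), with FITChigh in green on the left and FITCdim in grey on the right of each panel, and the mean ± SD of 3 libraries in black. For Gja4, Gja5 and Gjc1 every FITChigh library lies below every FITCdim library, while the Gja1 values of the gates overlap.

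Gja1 (ENSMUSG00000050953.10, chromosome 10, 56377330 to 56402513, plus strand of mm10) was by far the most abundant connexin in both gates. It stood at 1955, 2426 and 2455 adjusted read counts in FITChigh replicates 1, 2 and 3, against 1528, 1742 and 2171 in FITCdim replicates 1, 2 and 3. The highest FITCdim library exceeded the lowest FITChigh library, so the gates overlapped. The FITChigh mean was 2279 ± 281 and the FITCdim mean 1814 ± 327 (± SD over 3 libraries), a log2 fold change of 0.34 (SE 0.15) that did not pass (limma adjusted p = 0.17). With libraries rescaled to a common total the log2 fold change was 0.13, when the median of all tested genes shifted from -0.006 to -0.20. After quantile normalization it was 0.07, with a median of 0.13.

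Gja1 was measured from 6710 recovered reads in FITChigh and 5833 in FITCdim, the deepest coverage of any member. That is 950 RPM (the usual scaling of a gene's reads to all reads of the gate) in FITChigh (exact 95% binomial interval 927 to 973) and 845 in FITCdim (823 to 867). These intervals cover counting error alone, because PCR copies cannot be told from separate molecules without molecular barcodes.

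Gja5 (ENSMUSG00000057123.14, chromosome 3, 96904693 to 97077416, plus strand), the atrial, Purkinje and arterial connexin, had the largest fall on the log2 scale, although by the ratio of plain means it was 6.61-fold lower and Gja4 7.17-fold lower. Gja5 stood at 2.85, 8.08 and 0.568 adjusted read counts in FITChigh replicates 1, 2 and 3, against 34.6, 28.3 and 13.1 in FITCdim replicates 1, 2 and 3. The highest FITChigh library, replicate 2, was still below the lowest FITCdim library, replicate 3. The FITChigh mean was 3.83 ± 3.85 and the FITCdim mean 25.3 ± 11.1 (± SD over 3 libraries), with a log2 fold change of -2.69 (SE 0.56, limma adjusted p = 0.0028). The log2 fold change was -3.32 without FITChigh replicate 2 and -2.05 without FITChigh replicate 3, and Gja5 was called in both.

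Few reads stood behind Gja5 in FITChigh, with 3, 6 and 1 recovered reads in replicates 1, 2 and 3, against 55, 23 and 11 in FITCdim replicates 1, 2 and 3. Summed over a gate, Gja5 had 1.42 RPM in FITChigh (exact 95% interval 0.679 to 2.60) and 12.9 in FITCdim (10.4 to 15.9). These intervals do not overlap, but they leave out the spread between libraries. Those of Gja1 did not overlap either, although Gja1 did not pass the test. The annotated Gja5 locus overlaps genes on the other strand, among them Gpr89 and a pair of antisense genes. Whether counting used strand is not given in the sources used here, so reads of Gja5 and its antisense partners may not have been told apart. Gpr89 stood at 22.7 to 37.1 adjusted read counts in FITChigh and 26.5 to 35.6 in FITCdim, with overlapping gates.

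Gja4 (ENSMUSG00000050234.7, chromosome 4, 127311421 to 127314039, minus strand), the vascular connexin, was the scarcest member by adjusted read count. It stood at 0.931, 2.92 and 2.41 in FITChigh replicates 1, 2 and 3, against 23.8, 16.1 and 5.01 in FITCdim replicates 1, 2 and 3. The gates did not overlap, but FITCdim replicate 3 was much nearer to the FITChigh libraries than the other two. The FITChigh mean was 2.09 ± 1.03 and the FITCdim mean 14.96 ± 9.45 (± SD over 3 libraries), with a log2 fold change of -2.21 (SE 0.53, limma adjusted p = 0.0087). It was -1.78 and no longer called without FITCdim replicate 1 (limma adjusted p = 0.085), and -2.80 without FITCdim replicate 3.

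Gja4 had 1, 2 and 3 recovered reads in FITChigh replicates 1, 2 and 3, so no FITChigh library rose above the floor of 3 reads. FITCdim replicates 1, 2 and 3 had 37, 13 and 4 reads. Over a gate this is 0.849 RPM in FITChigh (exact 95% interval 0.312 to 1.85) and 7.82 in FITCdim (5.88 to 10.2).

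Gjc1 (ENSMUSG00000034520.14, chromosome 11, 102799579 to 102819700, minus strand), the connexin of nodal and conduction tissue, fell less than Gja4 or Gja5 on the log2 scale. The sizes of these falls were not tested against each other. Gjc1 stood at 32.5, 22.7 and 35.3 adjusted read counts in FITChigh replicates 1, 2 and 3, against 59.5, 55.6 and 42.5 in FITCdim replicates 1, 2 and 3. Every FITChigh library was lower than every FITCdim library. The FITChigh mean was 30.2 ± 6.62 and the FITCdim mean 52.5 ± 8.87 (± SD over 3 libraries), with a log2 fold change of -0.79 (SE 0.25, limma adjusted p = 0.039).

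The call of Gjc1 was close to the threshold and was lost when any of 4 libraries was left out. Its limma adjusted p was 0.07 or 0.14 when FITChigh replicate 1 or replicate 2 was left out, and 0.17 or 0.12 when FITCdim replicate 1 or replicate 2 was. It was 0.11 after quantile normalization. The reads behind Gjc1 were 34, 14 and 44 in FITChigh and 97, 45 and 37 in FITCdim, in the order of replicates 1, 2 and 3.

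**Figure D2:**
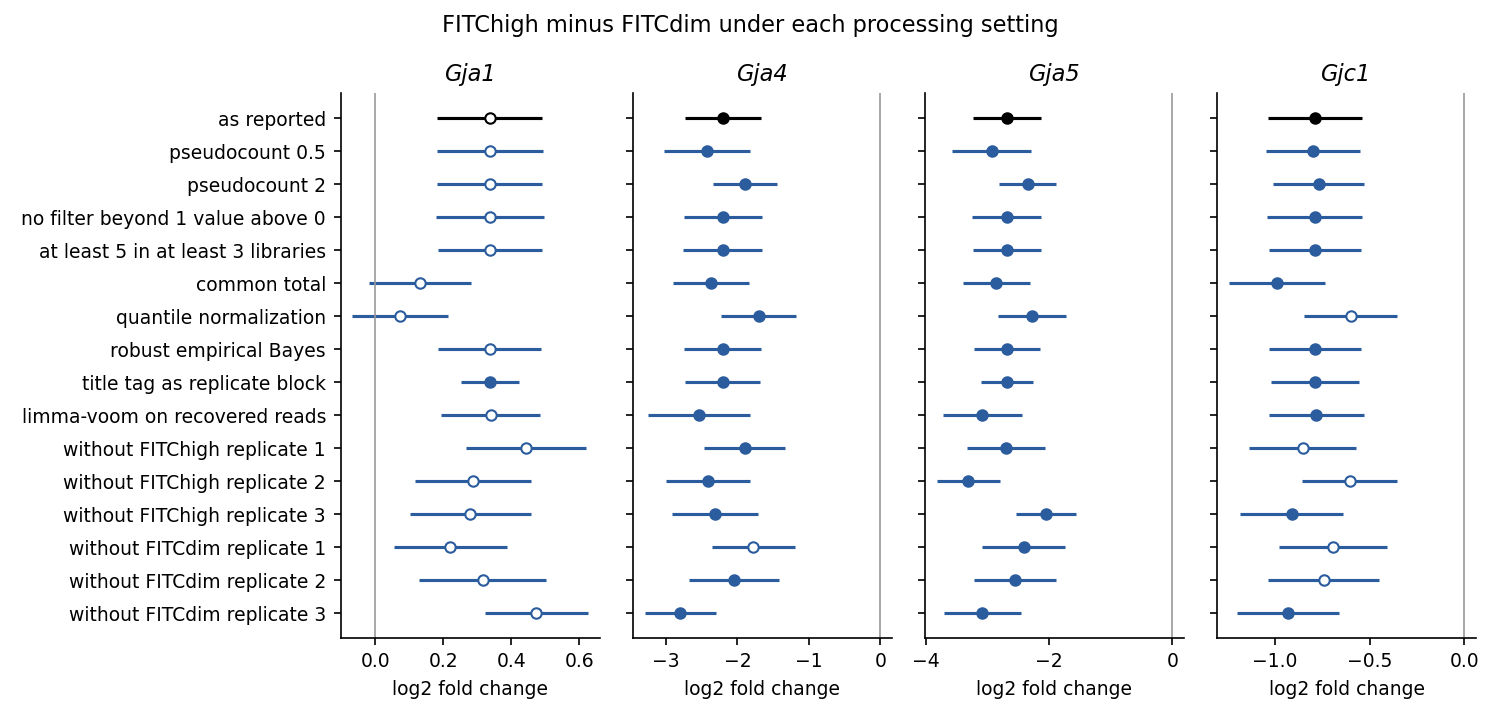
Log2 fold change of each connexin gene, FITChigh minus FITCdim (x axis, bars are SE), under the reported setting in black and 15 alternatives in blue; filled points have a limma adjusted p under 0.05. Gja4, Gja5 and Gjc1 lie below 0 and Gja1 above 0 in every row, while filling is lost for Gja4 in 1 row and for Gjc1 in 5.

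Plain ratios to Gja1 within a library do not depend on a factor that scales a whole library. Fitted log2 ratios do so slightly, since 1 is added to each value. Rescaling to a common total moved the fitted difference from -2.55 to -2.50 for Gja4 and from -3.02 to -2.99 for Gja5. Gja5 amounted to 0.146%, 0.333% and 0.0232% of the Gja1 value in FITChigh replicates 1, 2 and 3, against 2.26%, 1.62% and 0.602% in FITCdim replicates 1, 2 and 3. Gja4 amounted to 0.0476%, 0.120% and 0.0982% in FITChigh, against 1.56%, 0.922% and 0.231% in FITCdim. Gjc1 amounted to 1.66%, 0.936% and 1.44% in FITChigh, against 3.89%, 3.19% and 1.96% in FITCdim. All FITChigh ratios lay below all FITCdim ratios for each of the 3 genes, and in all 3 the FITCdim library with the lowest ratio was replicate 3, which also had the highest Gja1 of its gate. How many of all genes had ratios to Gja1 that did not overlap was not counted. Over all tested genes the median log2 ratio to Gja1, FITChigh minus FITCdim, was -0.34.

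On average the Gja5 ratio was 0.167% ± 0.156 in FITChigh and 1.496% ± 0.838 in FITCdim, the Gja4 ratio 0.0887% ± 0.0372 in FITChigh and 0.904% ± 0.664 in FITCdim, and the Gjc1 ratio 1.35% ± 0.372 in FITChigh and 3.01% ± 0.979 in FITCdim (± SD over 3 libraries). The ratio of the gate means was 8.95-fold lower in FITChigh for Gja5, 10.2-fold for Gja4 and 2.24-fold for Gjc1. Fitted in limma over all genes relative to Gja1, the log2 difference was -3.02 (SE 0.49) for Gja5, -2.55 (SE 0.54) for Gja4 and -1.13 (SE 0.33) for Gjc1. The limma adjusted p was 4.0e-08 for Gja5, 4.6e-05 for Gja4 and 0.006 for Gjc1. In this fit 18.4% of 12906 genes were called lower and 0.00775% higher relative to Gja1.

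Every ratio in that fit carries the same Gja1 values, which can make its moderated p-values too small. Without moderation, an alternative added after the data were seen, none of the 3 ratios was called, with adjusted p = 0.17 for Gja5, 0.17 for Gja4 and 0.20 for Gjc1 by limma's linear model. Of the 12906 genes, 629 were called lower and 2 higher relative to Gja1 without moderation. The exact two-sided permutation test gave p = 0.1 for each of the 3 ratios, the smallest value that 3 against 3 libraries allow. The fall of the Gja4 ratio was -3.27 on the log2 scale without FITCdim replicate 3, and that of the Gja5 ratio -2.33 without FITChigh replicate 3. After quantile normalization the Gja4 ratio stood at -1.77 and the Gja5 ratio at -2.36. The Gjc1 ratio lost its limma call without FITChigh replicate 2 (adjusted p = 0.099), FITCdim replicate 1 (0.076) or FITCdim replicate 2 (0.063) and after quantile normalization (0.19).

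**Figure D3:**
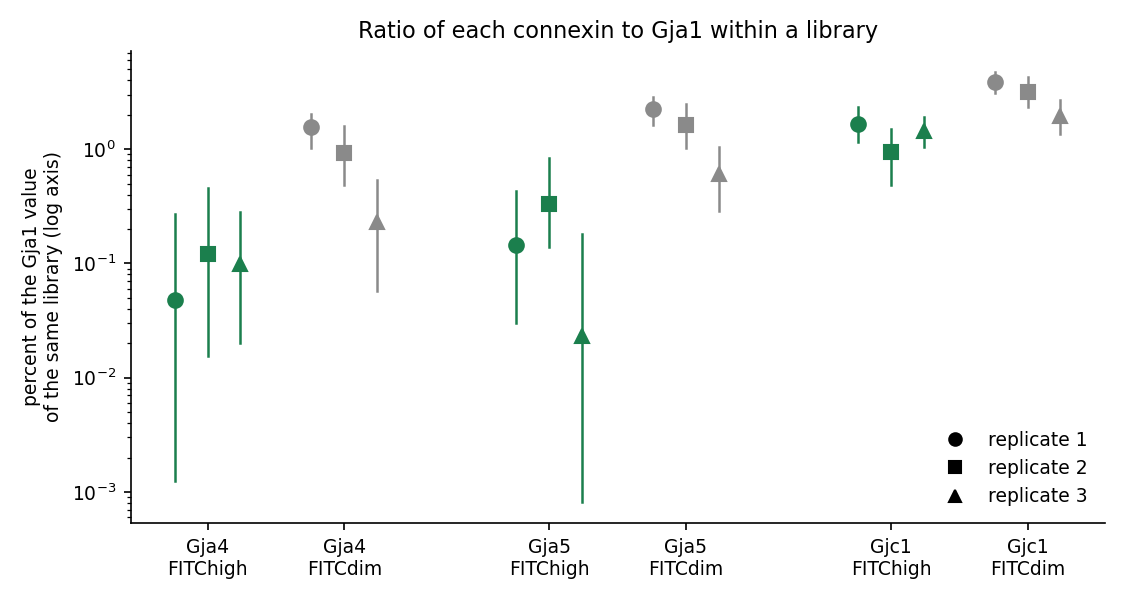
Adjusted read count of Gja4, Gja5 and Gjc1 as a percentage of Gja1 in the same library (y axis, log scale), FITChigh in green left of FITCdim in grey; bars are exact 95% counting intervals from the recovered reads. The FITChigh points of Gja4 run from 0.0476% to 0.120% and its FITCdim points from 0.231% to 1.56%, and the interval bars of FITCdim replicate 3 overlap those of FITChigh libraries.

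Put as shares of all connexin reads, summed over 20 connexin genes, Gja1 took 95.4%, 96.0% and 95.8% in FITChigh replicates 1, 2 and 3, against 90.6%, 91.7% and 95.2% in FITCdim replicates 1, 2 and 3. The exact 95% intervals were 94.4% to 96.2% in FITChigh replicate 1 and 89.4% to 91.6% in FITCdim replicate 1. FITCdim replicate 3, with an interval of 94.2% to 96.1%, stood with the FITChigh libraries in this share. Gja5 and Gja4 together never dominated any library, since the largest share of Gja5 was 1.98% and the largest of Gja4 was 1.33%, both in FITCdim replicate 1.

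To order the genes by level, adjusted read counts were divided by the length of all annotated exons of the gene. In FITChigh the members stood at 222 ± 27.4 per kb for Gja1, 6.03 ± 1.32 for Gjc1, 1.24 ± 0.613 for Gja4 and 0.667 ± 0.670 for Gja5 (± SD over 3 libraries). In FITCdim they stood at 177 ± 31.9 per kb for Gja1, 10.5 ± 1.77 for Gjc1, 8.88 ± 5.61 for Gja4 and 4.41 ± 1.93 for Gja5 (± SD over 3 libraries). In FITChigh the libraries of Gja1 and Gjc1, and those of Gjc1 and Gja4, did not overlap, whereas Gja4 and Gja5 could not be ordered beyond their spread. In FITCdim Gja1 again stood clear, but Gjc1 overlapped Gja4, and Gja4 overlapped Gja5. The order of the means was the same with the longest annotated transcript as the length, which gave 586 per kb in FITChigh and 466 in FITCdim for Gja1.

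**Figure D4:**
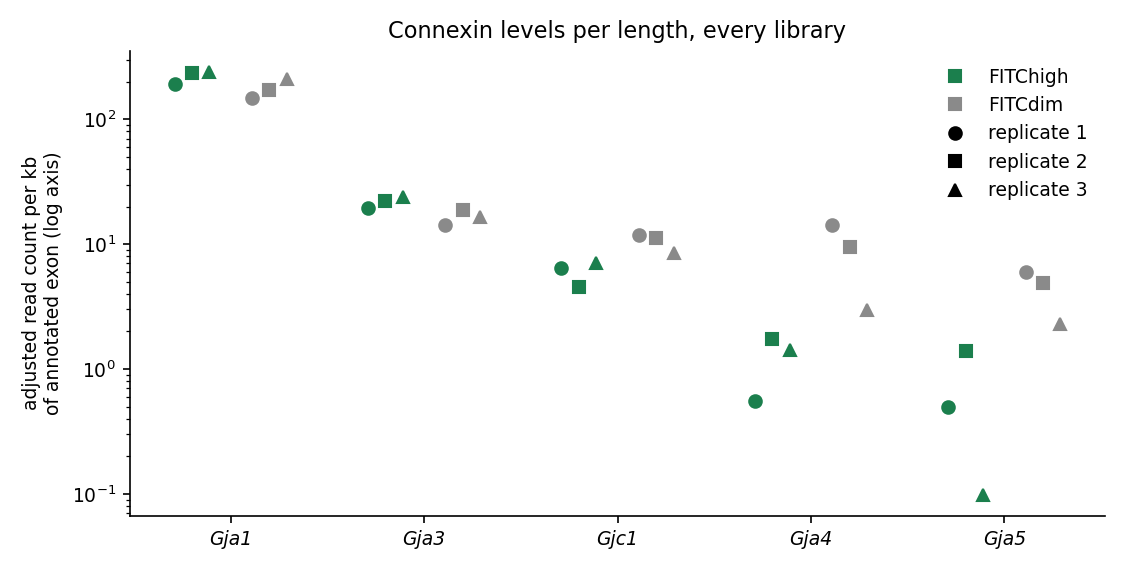
Adjusted read count per kb of annotated exon (y axis, log scale) of 5 connexin genes in every library, FITChigh in green left of FITCdim in grey. Gja1, with means of 222 in FITChigh and 177 in FITCdim, lies far above the other genes, and the FITChigh points of Gja4 and Gja5 are the lowest.

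Of the other 16 connexin genes in the table, 11 were listed at 0 in every library and 1, Gja3, was high enough to test. Gja6 had 0 recovered reads in FITChigh and 3 in FITCdim, and Gjb2 and Gjb5 had 1 read each over all libraries. The pannexins, which form related channels that do not dock between cells, were scarce. Both tested pannexins failed the test, with a log2 fold change of -0.38 for Panx1 (limma adjusted p = 0.75) and -0.18 for Panx2 (0.87).

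Markers of 9 cell types, with and without known use of these connexins, were measured beside them. The median log2 fold change was -2.71 over 12 endothelial and -2.61 over 13 arterial endothelial markers, all of which were lower in FITChigh. Of 9 tested atrial markers 8 were lower and 0 higher (median -2.93). Of 10 tested conduction markers 3 were lower, namely Cntn2, Tbx3 and Etv1, and 1 was higher, Irx3 (median -0.10). Over all tested genes 13.5% were lower and 2.51% higher, with a median of -0.006. Of 8 smooth muscle markers 5 were lower and 0 higher (median -2.17). All 9 tested fibroblast markers (median -2.66), all 7 tested macrophage markers (median -2.47) and 7 of 8 pericyte markers (median -2.42) were lower too. Of 10 cardiomyocyte markers 1 was higher and 0 lower (median 0.52).

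The summed level of the atrial markers was 392 to 616 in FITChigh and 1476 to 2860 in FITCdim, and that of the arterial endothelial markers 362 to 508 in FITChigh and 1425 to 1759 in FITCdim. The conduction sum overlapped between the gates, at 1420 to 1935 in FITChigh and 1453 to 1699 in FITCdim. The smooth muscle sum was 1011 to 1207 in FITChigh and 1316 to 1502 in FITCdim. The fibroblast sum was 115 to 144 in FITChigh and 622 to 1133 in FITCdim, and the macrophage sum 84 to 118 in FITChigh and 423 to 927 in FITCdim. The pericyte sum overlapped, at 1051 to 1586 in FITChigh and 1398 to 1997 in FITCdim. Of all these markers, Isl1 of the conduction list alone was at 0 in every library. In FITCdim replicates 1, 2 and 3 the atrial sum was 1817, 2860 and 1476, the arterial endothelial sum 1493, 1425 and 1759, the fibroblast sum 1133, 645 and 622 and the macrophage sum 927, 495 and 423. Gja4 and Gja5 were both highest in FITCdim replicate 1 and lowest in replicate 3. The fibroblast and macrophage sums had the same order, and the sums of the other lists did not. The endothelial sum, for example, was 5061, 4578 and 4608 in FITCdim replicates 1, 2 and 3. An order of only 3 libraries is easily shared by chance. The part of these cell types in the connexin results was not tested.

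Set against Pecam1, an endothelial adhesion molecule, Gja5 and Gja4 had ratios of summed reads whose counting intervals overlapped between the gates. There were 0.0369 Gja5 reads per Pecam1 read in FITChigh (exact 95% counting interval 0.0175 to 0.0689) and 0.0401 in FITCdim (0.0321 to 0.0496). For Gja4 the ratio was 0.0221 in FITChigh (0.00805 to 0.0488) and 0.0243 in FITCdim (0.0182 to 0.0319). Its values by library ran from 0.0116 to 0.0271 in FITChigh and from 0.00974 to 0.0295 in FITCdim. By library the Gja5 ratio ran from 0.00639 to 0.0712 in FITChigh and from 0.0254 to 0.0515 in FITCdim, so the gates overlapped. For Gjc1 the intervals did not overlap, with 0.340 reads per Pecam1 read in FITChigh (0.265 to 0.432) and 0.0806 in FITCdim (0.0689 to 0.0939). By library the Gjc1 ratio was 0.406, 0.200 and 0.397 in FITChigh and 0.0738, 0.101 and 0.0826 in FITCdim, with no overlap between the gates. Pecam1 itself had a log2 fold change of -2.70 and Gjc1 one of -0.79. Any gene that fell less than Pecam1 has a higher ratio to it in FITChigh. How many of all genes had Pecam1 ratios that did not overlap was not counted. The ratio of Gja5 to the atrial light chain Myl7 also had overlapping intervals, at 0.103 reads per Myl7 read in FITChigh (0.0479 to 0.198) and 0.0824 in FITCdim (0.0656 to 0.102). So did its ratio to Cntn2, a Purkinje marker, at 0.435 in FITChigh (0.185 to 0.9497) and 0.374 in FITCdim (0.290 to 0.479). The Cntn2 ratio of FITChigh replicates 1, 2 and 3 was 0.197, 2.12 and 0.127, beyond its interval at both ends. In FITCdim it was 0.533, 0.304 and 0.211. The Myl7 ratio by library was 0.0965, 0.150 and 0.0254 in FITChigh and 0.121, 0.0555 and 0.0591 in FITCdim. The FITChigh intervals of Gja5 are wide, since they rest on 10 Gja5 reads. The log2 fold change was -3.23 for Myl7 and -3.30 for Cntn2, beside -2.69 for Gja5 and -2.21 for Gja4. The ratios restate these falls and that of Pecam1, so their overlap cannot tell cell types apart. Fibroblast and macrophage markers, with median log2 fold changes of -2.66 and -2.47, were not used as denominators.

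**Figure D5:**
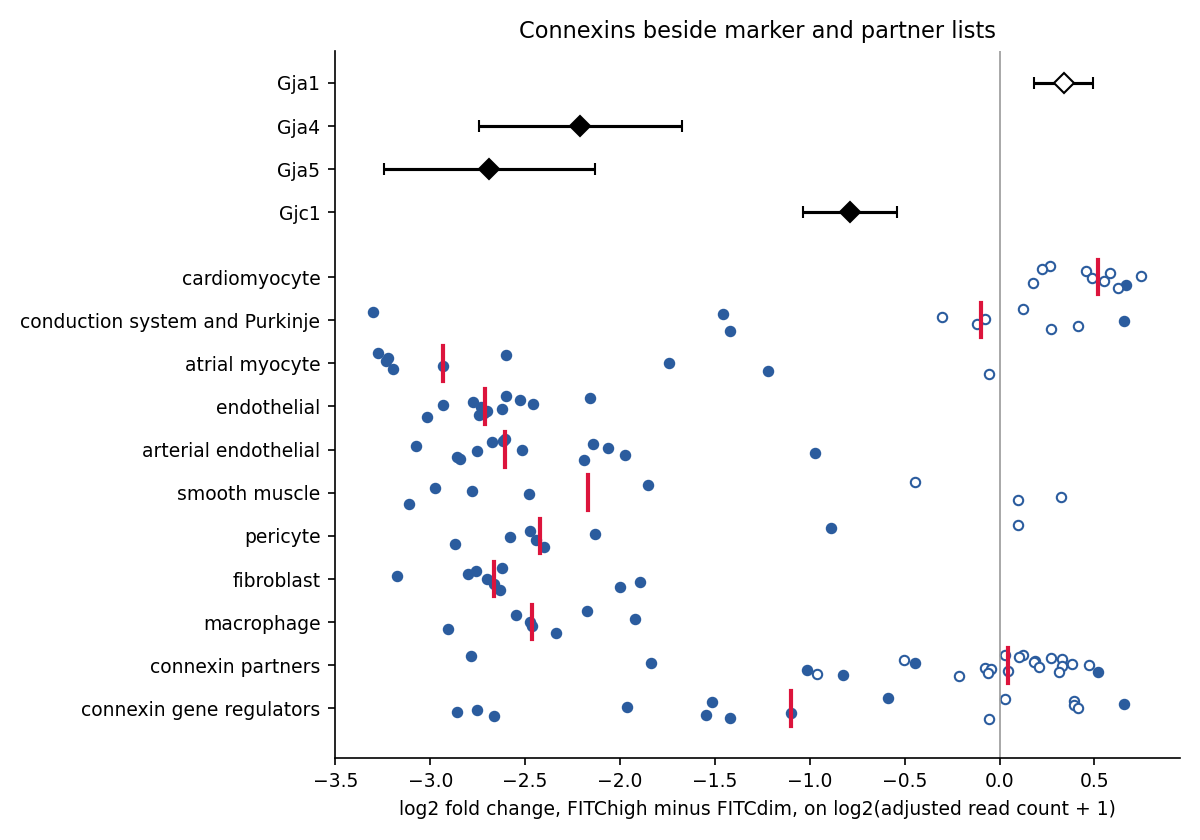
Log2 fold change, FITChigh minus FITCdim (x axis), of the 4 connexin genes (black diamonds with SE) and of the tested genes of 11 lists (blue points, red line at the median); filled symbols have a limma adjusted p under 0.05. Gja4 (-2.21) and Gja5 (-2.69) lie in the range of the endothelial, atrial, smooth muscle, pericyte, fibroblast and macrophage points alike, and Gja1 (0.34) lies near the cardiomyocyte median of 0.52.

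Genes of proteins known to bind, anchor or modify cardiac connexins came next. Of 25 tested, 1 was higher and 5 were lower in FITChigh, while 19 missed the threshold, and the list's median log2 fold change was 0.05, beside 2.51% higher, 13.5% lower and a median of -0.006 over all tested genes. Pkp2, the plakophilin of the cardiac desmosome, rose by 0.52 (limma adjusted p = 0.0076), averaging 548 ± 7.27 adjusted read counts over FITChigh libraries and 382 ± 15.01 in FITCdim (± SD over 3 libraries). Tjp1, the zonula occludens scaffold that binds the tail of connexin 43, fell, with 194 ± 53.3 in FITChigh and 344 ± 86.5 in FITCdim libraries (± SD; log2 fold change -0.83, limma adjusted p = 0.0088). The other falls, as log2 fold changes, were those of the caveolin gene Cav1 (-2.79), the actin-binding drebrin gene Dbn1 (-1.84), the kinase gene Mapk3 (-1.01) and the junction protein gene Ctnnb1 (-0.45). The most abundant of the list, the intermediate filament gene Des, stood at 0.38 (limma adjusted p = 0.18).

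Of 15 transcription regulators known to act on cardiac or vascular connexin genes, 1 was higher and 9 were lower in FITChigh, while 5 missed the threshold, and the list's median log2 fold change was -1.10, beside the same 2.51% higher, 13.5% lower and median of -0.006 over all tested genes. Irx3, which in mouse represses Gja1 and raises Gja5 in the ventricular conduction system, rose by 0.66 (limma adjusted p = 0.041). The T-box repressors Tbx2 and Tbx3, known to hold down connexin genes in nodal tissue, had log2 fold changes of -2.66 and -1.42 (limma adjusted p = 0.00037 and 0.0011). Notch1 and Sox17, of the arterial programme, had -2.76 and -2.86, and the flow-responsive Klf2 had -1.96. The other falls were those of Tbx18 (-1.55), Id2 (-1.52), Sp1 (-1.10) and Foxo1 (-0.59). The cardiac factors Nkx2-5 (0.41), Tbx5 (-0.06) and Gata4 (0.03), of which Gata4 was the most abundant of the list, did not pass, nor did Hopx (0.39) and Irx5 (0.39). Notch1, Sox17, Tbx3, Irx3, Nkx2-5 and Tbx5 are also on the cell type lists above, so the regulator counts are not separate from those.

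Because Gja5 and Gja4 both fell and Gja1 did not, their promoters are shown from the RefSeq table of build GRCm38.p6, as the 250 bases before the RefSeq start. They lie at chr3:97032152-97032401 on the plus strand for Gja5, chr4:127314040-127314289 on the minus strand for Gja4 and chr10:56377050-56377299 on the plus strand for Gja1. Capitals mark matches, on either strand, to AAGTG (a core bound by NKX2-5), GGTGTG (the core of T-box factors), GATAA (a core of GATA-binding factors), ACAAT (the core of SOX factors) and GGGCGG (the GC box bound by SP1).
Gja5: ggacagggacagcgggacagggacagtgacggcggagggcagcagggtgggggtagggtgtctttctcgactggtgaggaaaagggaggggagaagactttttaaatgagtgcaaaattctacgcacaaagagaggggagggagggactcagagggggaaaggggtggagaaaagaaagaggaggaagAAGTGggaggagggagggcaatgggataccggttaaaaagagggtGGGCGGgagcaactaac
Gja4: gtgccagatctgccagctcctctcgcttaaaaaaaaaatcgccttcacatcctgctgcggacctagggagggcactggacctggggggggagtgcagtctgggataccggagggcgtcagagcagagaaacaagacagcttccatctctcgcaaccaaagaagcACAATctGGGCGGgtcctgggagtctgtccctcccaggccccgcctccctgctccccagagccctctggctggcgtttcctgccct
Gja1: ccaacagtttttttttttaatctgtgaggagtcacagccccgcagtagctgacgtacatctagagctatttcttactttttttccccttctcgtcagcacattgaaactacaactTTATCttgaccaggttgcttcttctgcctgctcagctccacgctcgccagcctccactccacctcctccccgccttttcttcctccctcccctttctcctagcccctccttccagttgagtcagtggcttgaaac

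The Gja5 window held 1 AAGTG, which 40.7% of 32851 such windows also hold, and 1 GGGCGG, held by 32.7%. The Gja4 window held 1 ACAAT (27.7% of windows) and 1 GGGCGG. The Gja1 window held 1 GATAA on the other strand (22.6% of windows), and none of the 3 windows held GGTGTG (16.3%). These matches are short and common, and describe letters in the windows only.

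The genes closest to each member in pattern over the 6 libraries were taken from 9498 tested genes by the root mean square difference of centred log2 values, given here as a description. For Gja1 they were the kinesin gene Kif3a (0.04), the zinc finger gene Zfp106 (0.05) and the receptor gene Crhr2 (0.05). For Gjc1 they were Marveld1 (0.09), Btbd3 (0.10) and Cyfip1 (0.11). The nearest genes to Gja4 were more distant, with Adh1, an alcohol dehydrogenase gene, at 0.28, Spon1 at 0.32 and Nckap1l at 0.33. Gja4 and Gja5 rest on few reads, so counting noise can widen their distances. For Gja5 they were the aminopeptidase gene Anpep at 0.32, the chemerin gene Rarres2 at 0.35 and Amigo2 at 0.37. Anpep stood at 1.91, 4.05 and 0 adjusted read counts in FITChigh replicates 1, 2 and 3, against 26.3, 19.9 and 15.1 in FITCdim replicates 1, 2 and 3, with the highest FITChigh and the lowest FITCdim library the same as for Gja5.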

How the data were processed

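Stranded mRNA libraries were sequenced as paired reads of 75 bases on a NextSeq 500, per the labels' protocols. STAR 2.5, edgeR and mm10 are named in the submitters' processing notes. Which counter and annotation were used, and whether strand was, is not stated in those sources. The deposited unit is a signal: read counts that the authors adjusted so that libraries share 1 effective size. Columns were matched to samples by title. Replicates are numbered in accession order. Of 23410 lines, 6 were garbled and left out.

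Whole reads were deduced by reversing a negative binomial equalization of library sizes (dispersion 0.0202), with 100% of values whole within 0.1 in each library. The 12907 genes that reached a value of 1 in 3 or more libraries entered limma 3.58.1 on the scale log2(value + 1) (R 4.3.3; trend, empirical Bayes, two-sided, Benjamini-Hochberg, threshold 0.05). Ratios were fitted likewise after subtracting Gja1. Promoters come from RefSeq (3 of 4 members matched), lengths and positions from GENCODE vM21, whose build matches. Fits were tested on simulated data. Alternatives covered pseudocount, filter, scaling, robust fitting, a block on title tags, limma-voom on recovered reads (359 genes higher and 1716 lower) and leaving out each library with the gene filter held fixed. Named genes are the members, members of the partner, regulator and related-channel lists that passed the test or were most abundant, and the 3 nearest in pattern; others were chosen after their values were seen. The members and lists were chosen with earlier results of these data known. The loop sequence of Gja4 is not reported here.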

Additional observations from a re-analysis of the deposited data

How the results depend on the processing

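Over the alternatives run, none of Gja1, Gja4, Gja5 and Gjc1 changed direction. Gja3 was not recomputed under them. Gja5 was called lower under all 15 (limma adjusted p 0.0002 to 0.048), Gja4 under 14 of 15 (0.0028 to 0.085) and Gjc1 under 10 of 15 (0.011 to 0.17). Gja1 was called under 1 of 15, the replicate block (0.0094 to 0.76).

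Leaving out 1 library at a time gave log2 fold changes of -3.32 to -2.05 for Gja5, -2.80 to -1.78 for Gja4 and -0.93 to -0.60 for Gjc1, and log2 ratio differences to Gja1 of -3.60 to -2.33 for Gja5, -3.27 to -1.9985 for Gja4 and -1.41 to -0.89 for Gjc1. Counts of called genes ran from 67 to 337 higher and 1156 to 1667 lower. Fewer libraries also leave less power. After quantile normalization Gjc1 stood at -0.60 and its ratio at -0.67, neither called. Rescaling to a common total left 41 higher genes. The ratio differences were not called by the exact permutation test or without moderation, at unchanged values of -3.02 (Gja5), -2.55 (Gja4) and -1.13 (Gjc1). The causes were not tested.

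Sample titles of both gates carry the same tags (none, 1-2, 3-4). Deviations from the gate means correlated at 0.071, 0.125 and 0.175 for libraries with the same tag and at -0.122 to -0.008 otherwise, so each library correlated best with its own tag, but not every pair exceeded 0.1 and the tags were not taken as pairing. With the tag as a replicate block, 1064 genes were higher and 2059 lower, and Gja1, at 0.34, was called higher.

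Depth limits Gja4 and Gja5 in FITChigh, which rest on 6 and 10 reads.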

Other observations

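Gja3, which encodes connexin 46 and is best known from the lens, was the second connexin by level per length in both gates. It stood at 58.2, 66.0 and 71.1 adjusted read counts in FITChigh replicates 1, 2 and 3, against 42.4, 55.3 and 49.0 in FITCdim replicates 1, 2 and 3. The gates did not overlap, and the log2 fold change of 0.41 did not pass (SE 0.20, limma adjusted p = 0.20). Per kb of annotated exon the FITChigh mean was 22.0 ± 2.20 and the FITCdim mean 16.5 ± 2.18 (± SD over 3 libraries), and it rested on 193 recovered reads in FITChigh and 159 in FITCdim. As a share of Gja1 it came to 2.87% ± 0.130 in FITChigh libraries and 2.74% ± 0.459 in FITCdim libraries (± SD; p = 0.8 by an exact two-sided permutation test). By this length Gja3 stood above Gjc1 in every library of both gates. Per kb of the longest annotated transcript the order turned in FITCdim replicate 1, with 15.3 for Gja3 and 17.4 for Gjc1.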
